A study of Drosophila melanogaster with 11 samples.

Results

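The exon bins described here are the first exon bins of Drosophila melanogaster genes, read in stem cells and their daughters sorted from the adult midgut. An exon bin is a stretch of exon cut so that it belongs to the same set of annotated transcripts along its whole length. The exon table held 75196 bins of 14333 genes, and 7359 genes had at least 4 bins. The bin at the 5′ end of each of these genes was taken, which is the bin with the lowest start on the plus strand and the highest start on the minus strand. A first bin was kept if at least 2 libraries held at least 10 counts in it, which left 3328 of 7359 first bins (45.2%). Of the 4031 first bins not kept, 1779 held 0 counts in all 11 libraries. The threshold fell among low values, since 72 kept bins had exactly 10 counts in their second highest library and 94 bins left out had 9. Usage is the share of a gene's bin counts that fell in its first bin. A first bin said to rise or fall did so in usage, which also changes with the counts in the rest of the gene.

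Intestinal stem cells (ISCs) and enteroblasts (EBs) were sorted from intestines of adult females, 5 days old, that were wild-type (WT) or carried UAS-spen RNAi (SPEN). All flies carried esg>GAL4, tubGAL80.ts, UAS-RFP and nre-GFP. A shift from 18 °C to 29 °C for 2 days induced the transgenes. The driver is active in ISCs and EBs alike, so spen was targeted in both at once. Diploid cells with RFP alone were collected as ISCs, and diploid cells with RFP and GFP, which reports Notch activity, as EBs. WT-EB had 2 libraries and the other groups 3 each. The authors set aside WT-EB replicate 2 because it did not group with the others, so the spread of the WT-EB group may be too small.

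ISCs divide to renew the midgut epithelium, and most daughters become EBs, in which Notch signalling promotes differentiation into absorptive enterocytes. Spen is an RNA-binding protein of a family known for roles in transcriptional repression and RNA processing. The first exon of a transcript is set by its promoter, so many genes with several promoters have several alternative first exons. A 5′-most bin carried by only some transcripts of a gene is called an alternative start here. Where such a bin lies directly against the next bin, it may only extend the same exon and need not be a separate first exon. A bin that all transcripts carry reports instead how evenly reads cover the 5′ end, which also depends on RNA integrity and on selection of RNA by its poly(A) tail at the 3′ end.

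The 11 libraries held 28206027 to 31991452 counts over all bins, of which 6.53 to 7.10% lay in kept first bins. The summed CPM of 6 ISC markers was 33.9 to 256 in WT-ISC and 9.28 to 17.6 in WT-EB, and Dl, the Notch ligand that marks ISCs, was at 0 in WT-EB replicate 1 and 0.0637 CPM in replicate 3. The 6 EB markers were not higher in WT-EB, at 755 to 786 CPM against 832 to 1202 in WT-ISC, and were higher with spen RNAi in both cell types, at 2198 to 3544 in SPEN-ISC and 1571 to 2052 in SPEN-EB. Their part in the differences between SPEN and WT was not tested. The 8 enteroendocrine markers summed to 1162 to 2168 CPM in WT-ISC, 140 to 2509 in SPEN-ISC, 14.7 to 19.9 in WT-EB and 5.95 to 12.9 in SPEN-EB. The 7 enterocyte markers found summed to 1090 to 2144 CPM in WT-ISC, 1330 to 3398 in SPEN-ISC, 188 to 224 in WT-EB and 1786 to 1959 in SPEN-EB. Visceral muscle markers reached at most 25.5 CPM, and haemolymph and fat body markers at most 6.43 CPM. In these bulk samples, fewer cells of a type and less RNA per cell cannot be told apart.

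The targeted gene was read first. Counts in spen E014, a bin of 12094 bases (chromosome 2L, 187482 to 199575, plus strand; coordinates here and below are those of Drosophila release 5) that contains the stretch the RNAi hairpin targets, were 6, 101 and 39 in WT-ISC and 1088, 613 and 2160 in SPEN-ISC. They were 7 and 12 in WT-EB and 720, 393 and 406 in SPEN-EB. The paper attributes the rise of spen under RNAi to the overexpressed dsRNA. It reports that reads of both orientations piled up in this region with spen RNAi and not in WT. Counts of all other spen bins were 4.27, 7.76 and 4.34 CPM in WT-ISC, 4.62, 7.54 and 18.0 in SPEN-ISC, 1.69 and 2.10 in WT-EB and 16, 2.89 and 3.58 in SPEN-EB. They were thus no lower in the SPEN libraries, and E014 separated SPEN from WT in every library.

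The first bin of spen itself (E001, 2L, 159032 to 159819, 5 of 8 transcripts) held 10, 17 and 11 counts in WT-ISC, 26, 42 and 101 in SPEN-ISC, 1 and 11 in WT-EB and 70, 15 and 24 in SPEN-EB. With E014 in the total, its usage was 7.41, 5.26 and 6.59% in WT-ISC and 2.11, 5.05 and 3.78% in SPEN-ISC. In EBs it was 1.64 and 14.1% in WT and 5.96, 3.12 and 4.62% in SPEN. Hairpin reads enter this total, so usage was also computed without E014, a choice made after the values were seen. It then stood at 7.75, 7.66 and 8.59% in WT-ISC, and all SPEN-ISC libraries were higher, at 18.2, 19.2 and 19.8%. In WT-EB it was 1.85 and 16.7%, which rested on 1 and 11 counts, against 15.4, 17.2 and 21.2% in SPEN-EB.

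Without E014, the SPEN libraries lay 1.47 above the WT libraries on the log2 scale (1.40 in ISCs and 1.53 in EBs; exact permutation test within cell type, two-sided p = 0.01, smallest possible 0.005). Leaving out WT-EB replicate 1 lowered the difference to 0.74 (exact p = 0.0375) and that in EBs to 0.09. Leaving out WT-EB replicate 3 raised it to 2.19. With E014 kept, the difference was -0.72 (exact p = 0.225). The direction for spen therefore depends on whether E014, where the paper places reads of the hairpin, is kept in the total.

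**Figure D1:**
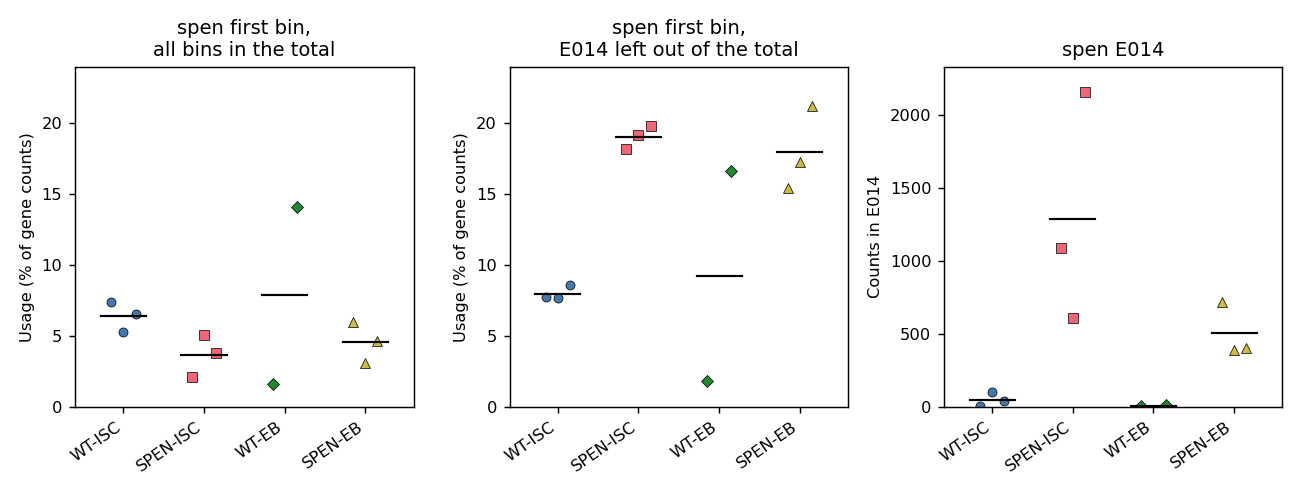
Points are libraries and lines are group means. The left and middle panels plot usage of the spen first bin in percent of gene counts, with E014 in the total and without it, and the right panel plots counts in E014. Without E014, the 3 SPEN-ISC libraries sit between 18.2 and 19.8%, above the 3 WT-ISC libraries at 7.66 to 8.59%, while the WT-EB libraries lie far apart at 1.85 and 16.7%.

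Kept first bins had a median width of 216 bases (quartiles 131 and 392, range 1 to 3457). They spread over 3R (830), 2R (695), 3L (619), 2L (595), X (539) and 4 (32), with the rest on unplaced or heterochromatic sequence. In 2273 of them the bin belonged to every annotated transcript of its gene, and 1239 of those genes have 1 annotated transcript. The other 1055 first bins belonged to only some transcripts and are called alternative starts. An intron separated 2694 first bins from the next bin, while 634 lay directly against it and share reads with it. Another gene's bin on the opposite strand overlapped 158 of them. The paper describes stranded libraries and a first-strand mode for its analyses, but not how strand entered the counts of exon bins. Reads of the 2 strands were therefore not taken as separated there. No kept first bin overlapped another gene on its own strand.

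Usage of a typical first bin was modest and varied with its width and with the number of bins in the gene. Among the 1867 kept first bins whose genes held at least 100 counts in every library, median usage was 12.5% (quartiles 5.68 and 20.9%). The commonest band was 10 to 20% of the gene's counts, with 602 bins (32.2%). A further 127 bins held under 1%, 96 held 40 to 80% and 5 held 80% or more. Median usage fell from 18.3% in genes with 4 or 5 bins to 5.32% in genes with 10 or more, and went from 1.59% for bins of 1 to 30 bases to 22.2% for bins over 500 bases. Bins against their neighbour had a median of 4.98% and bins before an intron 14.6%.

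To compare bins of different width, counts per base of the bin were divided by counts per base of the whole gene, which is called relative density here. The median over the 1867 bins was 1.24, and 1248 of them (66.8%) were read more densely than their gene. Bins of every transcript (1206) and alternative starts (661) differed in the low tail. Only 5 of the former had a relative density under 0.1, against 73 of the latter (11%), with medians of 1.26 and 1.11. Bins over 500 bases had a median of 0.862. First bins that overlap a bin on the other strand (105) had a median of 1.07, and 53.3% of them were above 1, against 67.7% of the 1762 without such an overlap.

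Over 2247 genes with at least 100 counts in every library, whether or not the first bin was kept, the median relative density of the first bin was 1.10 ± 0.00870 in WT-ISC (SD, n = 3), 1.10 ± 0.0510 in SPEN-ISC (n = 3), 1.13 ± 0.0105 in WT-EB (n = 2) and 1.07 ± 0.0993 in SPEN-EB (n = 3). The bins after the first had group means of 1.09 to 1.11, the middle bins 1.05 to 1.09 and the bins before the last 1.121 to 1.143. The last bin stood apart, at 0.668 to 0.711. By this measure the first bin was read about as densely as inner bins in these libraries, and the last bin less densely. Because relative density varied with width and widths were not compared between positions, these values cannot separate coverage of the ends from bin width.

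**Figure D2:**
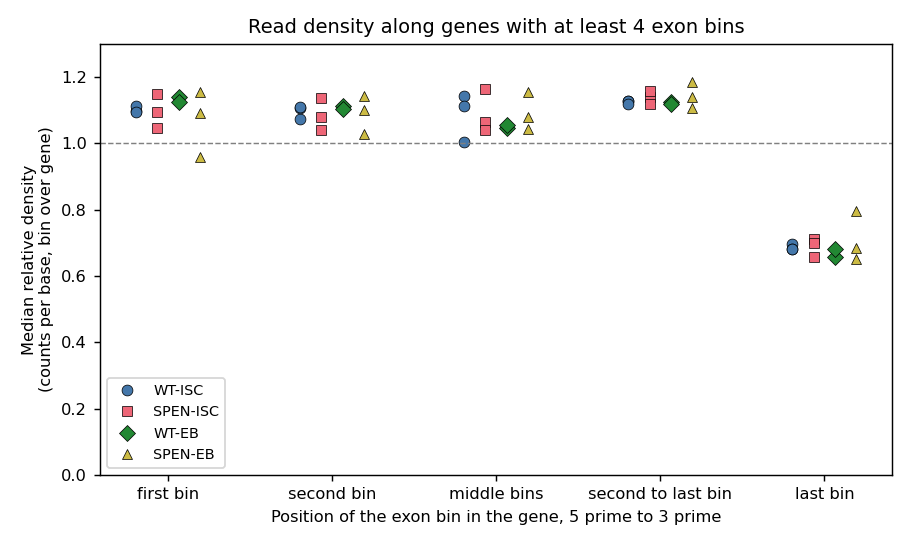
Each point is 1 library, placed by the position of the bin in the gene, 5′ to 3′, and by the median over genes of its relative density (counts per base of the bin over counts per base of the gene). The first bin lies between 0.960 and 1.15 in every library, the lowest being a SPEN-EB library, whereas the last bin lies between 0.651 and 0.797.

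The extremes of usage lay at bins with unusual annotation. The highest mean usages were those of CG1801, rempA and colt. In colt, which encodes a mitochondrial carrier, the first bin makes up 98.1% of the annotated length and held 97.8 to 99.2% of its counts. The first bin of rempA (E007, 2L, 559563 to 560310, minus strand), a gene for an intraflagellar transport protein, held 99.4 to 100% of counts. It shares 426 and 214 bases with E001 and E002 of CG2789 on the plus strand, and the rest of rempA held only 13 to 250 counts a library. That of CG1801 (E014, X, 21188368 to 21188549, minus strand) held 99.4 to 100% and lies wholly within E003 of Pros45, a proteasome subunit gene on the plus strand, with 0 to 2 counts in the rest of CG1801. For rempA and CG1801 the counts cannot be told apart from those of the partner gene.

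The lowest mean usages belonged to genes of the translation machinery with alternative starts. In RpL37A (2L, 5070957 to 5070999, 1 of 3 transcripts) it held 9 to 37 counts of 198033 to 382938. Those of Nacalpha, a subunit of the nascent polypeptide-associated complex, and RpL5 held 2 to 18 and 24 to 84 counts. RpL37A, RpL5 and RpL37a, named below, encode proteins of the large ribosomal subunit. All but a trace of the RNA of these genes was thus read downstream of the 5′-most annotated start.

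First bins of cytoplasmic ribosomal protein genes ranged widely, with mean usages from 0.0077 to 34.3%. Of their 58 kept first bins, 27 belonged to every transcript and 31 to only some, with a median usage of 7.21%, and 16 of the 57 with enough counts had a relative density under 0.1. In RpL37a (X, 15033285 to 15033423) the first bin held 34.6 ± 0.570% in WT-ISC (SD, n = 3), 34.3 ± 0.600% in SPEN-ISC (n = 3), 34.4 ± 0.271% in WT-EB (n = 2) and 34 ± 0.991% in SPEN-EB (n = 3). That of RpS26 had a mean of 29.6% over the 11 libraries, with 70438 to 150190 counts. The alternative starts with the most counts, apart from rempA, were also in this group, with mean usages of 15.3% for RpS9, 12% for sta, 21.8% for RpS30 and 11.8% for RpS19a. In contrast, the first bins of RpS7 and RpL17, each in 1 of 4 transcripts, held 0.0860 and 0.0797% on average.

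In the other gene groups, the median usage was 19.1% over 15 mitochondrial ribosomal proteins, 9.04% over 20 translation factors, 8.53% over 28 splicing factors and hnRNPs, and 13.1% over 16 genes of mitosis and the cell cycle. It was 5.05% over 11 Notch pathway genes, 10.4% over 21 genes of EGFR, insulin and JAK-STAT signalling, 13.1% over 5 digestive enzymes and 19.3% over 10 gut peptide hormones and their processing enzymes. Chromatin regulators (16) had 3.3% and genes of actin, junctions and polarity (21) 5.37%. Examples with many counts were eIF-5A (15.3%), eIF-4a (9.29%), the splicing factor genes SF2 (25.3%) and x16 (38.9%), His2Av (28.9%), the EGFR ligand gene spi (10.4%), Ras85D (17.9%), the cofilin gene tsr (28.3%) and Act5C (8.50%), all as means over 11 libraries.

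A summary over 1694 first bins with at least 10 counts in every library asked whether first-bin usage as a whole differed between the groups. Median usage was 16.4 ± 0.132% in WT-ISC (SD, n = 3), 16.1 ± 0.433% in SPEN-ISC (n = 3), 17.0 ± 0.138% in WT-EB (n = 2) and 15.8 ± 1.38% in SPEN-EB (n = 3). The SPEN-EB libraries ranged from 14.3 to 16.9%, with replicate 3 the lowest of all 11. Bins of every transcript had group means of 18.6, 18.5, 19.2 and 18.2% in the same order of groups, and alternative starts 10.6, 10.5, 11.7 and 10.4%. On the log2 ratio of first-bin counts to the other counts of the gene, ISC libraries lay -0.01 from EB libraries (-0.05 in WT and 0.03 in SPEN; exact permutation test within genotype, two-sided p = 0.87, smallest possible 0.005). SPEN libraries lay -0.08 from WT libraries (-0.04 in ISCs and -0.12 in EBs; exact permutation p = 0.17).

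Coverage bias moved with this summary. The median log2 ratio of counts in the bin before the last to the bin after the first, in 547 genes with at least 6 bins, was 0.322 to 0.788 across libraries and highest in SPEN-EB replicate 3. It is a 3′ to 5′ ratio that uses no first or last bin. In genes used for both, its bins are among the other counts of the gene in the first-bin log2 ratio, so it is not independent of that measure. Over the 11 libraries it was related to the library median of the first-bin log2 ratio with r = -0.914 (permutation p = 0.00144) and rho = -0.818 (permutation p = 0.00376), the only such relation computed. Without SPEN-EB replicates 1 and 3, the libraries farthest from the median, r was -0.689 (n = 9). The 3′ to 5′ ratio itself was -0.00438 apart between ISC and EB libraries (exact permutation p = 0.955) and 0.06 apart between SPEN and WT (exact permutation p = 0.655). For the library median of the first-bin log2 ratio, ISC libraries lay -0.05 from EB libraries without SPEN-EB replicate 3 (exact permutation p = 0.04). That library thus decides whether the cell types pass the threshold on the first-bin median.

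**Figure D3:**
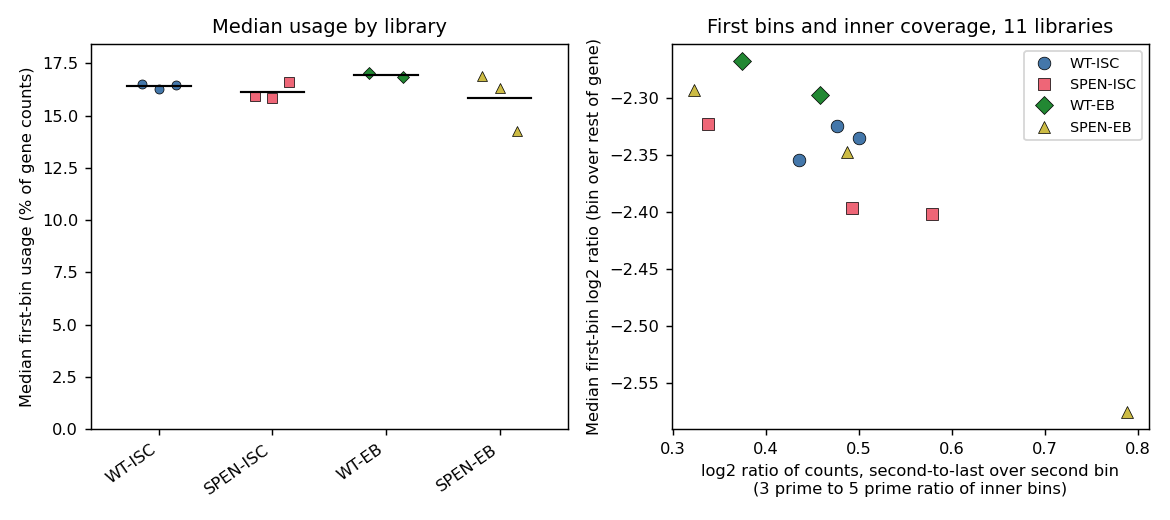
The left panel plots the median usage of 1694 first bins in each library in percent of gene counts, with lines at group means; 10 libraries lie between 15.8 and 17.1% and SPEN-EB replicate 3 at 14.3%. The right panel plots the median log2 ratio of the first bin to the rest of the gene against the 3′ to 5′ log2 ratio of inner bins, and SPEN-EB replicate 3 is the point at the lower right (0.788 and -2.57).

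Usage in SPEN-ISC was compared with WT-ISC bin by bin, to ask whether spen RNAi shifts first exons in stem cells. Of 2858 first bins tested, 1 passed at an adjusted p under 0.05 (limma, Benjamini-Hochberg over all bins tested), and the background was 9 of 28839 bins (0.0312%). An unadjusted p under 0.05 was reached by 139 first bins (4.86%), against 3.58% of all bins. The groups did not overlap for 295 first bins (10.3%, against 8.86% of all bins). The median log2 difference was -0.01 over first bins and 0.000332 over all bins, and that over first bins was -0.06 without SPEN-ISC replicate 3 and 0.000495 without WT-ISC replicate 1.

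The bin that rose was the first bin of CG42336 (FBgn0259238, E007, 2R, 7184767 to 7185041, minus strand), an alternative start in 2 of 5 transcripts. Its usage was 15.3, 16.8 and 17.8% in WT-ISC and 23.9, 23.4 and 24.1% in SPEN-ISC, without overlap. In EBs it was 9.27 and 12.7% in WT against 24, 13.1 and 16% in SPEN. The log2 difference in ISCs was 0.65 (SE 0.08, adjusted p = 0.0417 from limma), and it rested on 173 to 778 counts a library. The adjusted p lay between 0.00015 and 0.24 over 14 alternatives and was above 0.05 in 10 of them, among them edgeR and each fit without 1 of the 6 libraries.

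The first bins next in rank had values that did not pass. Hsp60, a mitochondrial chaperonin gene, differed by 0.44 (adjusted p = 0.0711 from limma), CG18853 by 0.54 (adjusted p = 0.335), Cdk5 by -0.67 (adjusted p = 0.364) and GS by 1.00 (adjusted p = 0.323). The counts of GS are uncertain, because a near-identical copy, CG32495, can share its reads. Without SPEN-ISC replicate 1, Hsp60 passed in ISCs (adjusted p = 0.029 from limma).

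In EBs, 1 of 2629 first bins passed, against 21 of 26421 bins in all (0.0795%). Unadjusted p was under 0.05 for 7.80% of first bins, 40 higher and 165 lower, against 5.73% of all bins (2.73% higher and 3.0% lower). The median log2 difference was -0.11 over first bins and -0.01 over all bins, and 66.1% of first bins were below 0 against 51.4% of all. Groups did not overlap for 688 first bins (26.2%), near the 24.5% of all bins. SPEN-EB replicate 3, with the highest 3′ to 5′ ratio, is in this comparison, and the median over first bins was -0.04 without it and -0.19 without SPEN-EB replicate 1. With the 3′ to 5′ ratio of each library as a covariate in the fit, that median was -0.05 and the median over all bins -0.01. The enterocyte and EB markers were higher in all SPEN-EB libraries than in WT-EB, and their part in this shift was not tested.

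The first bin of Cbl held a larger share of its gene's counts in SPEN-EB. Cbl encodes a ubiquitin ligase that promotes downregulation of EGFR. Its first bin (FBgn0020224, E001, 3L, 8418054 to 8418962, plus strand, 909 bases, both transcripts) held 5.78 and 5.95% in WT-EB and 15.6, 12.2 and 14.1% in SPEN-EB, without overlap. In ISCs it held 5.95, 12.3 and 6.75% in WT and 12.9, 16.5 and 15.9% in SPEN, also without overlap. Counts in the bin were 688 and 626 in WT-EB and 574, 502 and 804 in SPEN-EB, so the bin's own counts did not rise there. The whole gene held 1651 to 11899 counts a library. The log2 difference in EBs was 1.38 (SE 0.12, adjusted p = 0.00184 from limma), on 272 to 1337 counts a library, and it passed in all 13 alternatives (adjusted p up to 0.023).

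The number of calls in EBs depended on single libraries. Leaving out SPEN-EB replicate 1 gave 28 of 2344 first bins, beside 170 of 23462 bins in all. Leaving out replicate 2 gave 5, beside 31 bins in all, and replicate 3 gave 4, beside 45, while leaving out a WT-EB library gave 1. The bins next in rank were CG16986 (-1.43, adjusted p = 0.0593 from limma) and Gmap, a Golgi protein gene (-1.47, adjusted p = 0.0734). The Gmap bin held 84 and 78 counts in WT-EB and 78, 88 and 102 in SPEN-EB, so only its usage fell. CG6073 (-1.37) and Cdk5 (-0.86) had adjusted p of 0.125 and 0.122. Usage of the CG16986 first bin was 23.8 ± 0.297% in WT-EB (SD, n = 2) and 10.4 ± 2.69% in SPEN-EB (n = 3), but 14.4 ± 5.07% in WT-ISC (n = 3) and 10.3 ± 4.80% in SPEN-ISC (n = 3). Without SPEN-EB replicate 1, the first bins of CG16986, Gmap, CG6073 and Cdk5 all passed in EBs (adjusted p from limma of 0.0004, 0.00064, 0.0077 and 0.014), and without SPEN-EB replicate 2 CG16986 did (0.03).

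**Figure D4:**
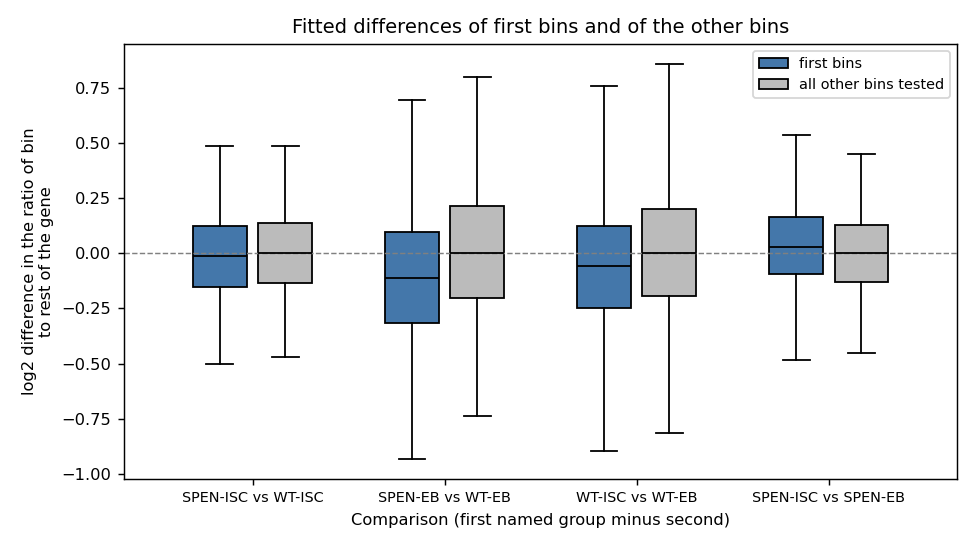
Boxes show the quartiles and median of the fitted log2 differences in the ratio of a bin to the rest of its gene, with whiskers from the 5th to the 95th percentile, for first bins (blue) and all other bins tested (grey). The first-bin box lies lowest for SPEN-EB against WT-EB, with a median of -0.11, and near 0 for SPEN-ISC against WT-ISC, with a median of -0.01.

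All 11 libraries were then fitted with cell type and genotype as terms, a comparison added after those by cell type were seen and using the same libraries. Of 3318 first bins, 10 passed for SPEN against WT, 5 higher and 5 lower, against 82 of 33820 bins (0.242%; 0.118% higher and 0.124% lower). Unadjusted p was under 0.05 for 295 (8.89%, against 6.69% of all bins), 85 higher and 210 lower (3.21% and 3.48% of all bins), and the median was -0.06, with 63.6% of first bins below 0 against 52% of all. This median was -0.03 without SPEN-EB replicate 3 and -0.10 without SPEN-ISC replicate 3. Groups did not overlap for 40 first bins (1.21%, against 1.05%). Calls fell to 3 without WT-ISC replicate 3, WT-EB replicate 1 or WT-EB replicate 3, to 4 without SPEN-ISC replicate 1 and to 6 without SPEN-ISC replicate 3, SPEN-EB replicate 2 or SPEN-EB replicate 3. Where 1 library was left in WT-EB, its spread was assumed to equal that of the other groups.

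First bins of Hsp60, Cdk5 and CG6073 passed under all 19 alternatives, and SPEN and WT did not overlap in either cell type. Hsp60 (FBgn0015245, E001, X, 11002515 to 11002666, plus strand, 1 of 2 transcripts) held 10.4, 9.85 and 9.77% in WT-ISC and 12.3, 13.1 and 14% in SPEN-ISC. In EBs it held 10.7 and 10.7% in WT and 13.2, 13.7 and 12.5% in SPEN, so the alternative start of this chaperonin gene rose by 0.39 (SE 0.05, adjusted p = 0.000919 from limma). Counts of the bin were 1831 to 4901 a library.

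Cdk5 encodes a cyclin-dependent kinase best known in neurons, and has 1 annotated transcript. Its first bin (FBgn0013762, E004, 2R, 11458640 to 11458918, minus strand) held 27.3, 23.1 and 22.3% in WT-ISC and 26.3 and 27.3% in WT-EB. All SPEN libraries were lower, at 16, 16.7 and 17.5% in ISCs and 16.7, 16.6 and 16.8% in EBs. The bin fell by 0.75 on the log2 scale (SE 0.09, adjusted p = 0.000919 from limma) on 90 to 221 counts. CG6073 (FBgn0039417, E005, 3R, 22014355 to 22014526, minus strand, both transcripts) had a first bin that held 23.3, 29.2 and 23.7% in WT-ISC, 13.4, 14.4 and 14.9% in SPEN-ISC, 23.6 and 24.2% in WT-EB and 12.1, 10.1 and 10.3% in SPEN-EB. It fell by 1.19 (SE 0.16, adjusted p = 0.00147 from limma) on 18 to 179 counts.

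CG18853 and CG9894 also separated SPEN from WT without overlap, with calls that hung on single libraries. CG18853 (FBgn0042173, E001, 2R, 3716562 to 3716760, plus strand) held 32.9, 34.3 and 30.3% in WT-ISC, 39.5, 41.9 and 42.6% in SPEN-ISC, 32.7 and 31% in WT-EB and 44.0, 41.1 and 36.4% in SPEN-EB (0.53, adjusted p = 0.0202 from limma). The call was lost in 7 of 19 alternatives, those without WT-ISC replicate 1 or 3, SPEN-ISC replicate 3, either WT-EB library or SPEN-EB replicate 2 and that with edgeR. CG9894 (FBgn0031453, E001, 2L, 2752799 to 2752837, plus strand, 39 bases, 2 of 3 transcripts) held 5.13, 5.05 and 6.25% in WT-ISC, 3.73, 2.49 and 4.01% in SPEN-ISC, 6.23 and 6.05% in WT-EB and 3.96, 4.80 and 3.81% in SPEN-EB (-0.64, adjusted p = 0.0269 from limma). Its call was lost in 9 of 19, among them the fits without WT-ISC replicate 1 or 3, SPEN-ISC replicate 1, either WT-EB library or SPEN-EB replicate 3.

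A pair of short first bins lay against the next bin in genes of the translation machinery, and both held under 0.12% of the gene. The 42-base first bin of RpL19 (FBgn0002607, E004, 2R, 20857029 to 20857070, minus strand, 1 of 2 transcripts), a gene of the large ribosomal subunit, held 0.0617, 0.0586 and 0.0546% in WT-ISC and 0.0977, 0.0827 and 0.0721% in SPEN-ISC. The bin held 243, 161 and 171 counts in WT-ISC and 254, 244 and 143 in SPEN-ISC. It held 237 and 202 counts in WT-EB and 158, 223 and 235 in SPEN-EB, so counts did not separate SPEN from WT. The paper reports RpL19 as downregulated in EBs with spen RNAi, and its exon usage as altered in both cell types. The exon bins that the paper called were not compared with the first bin here. In EBs the usage of the first bin was 0.0549 and 0.0497% in WT and 0.0663, 0.0713 and 0.0819% in SPEN, and usage did not overlap in either cell type. It rose by 0.51 (SE 0.09, adjusted p = 0.0202 from limma), on 143 to 254 counts of 198216 to 431370, and the call was lost without WT-ISC replicate 3, SPEN-ISC replicate 1 or either WT-EB library and in unweighted limma.

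The 18-base first bin of bic (FBgn0000181, E001, 2R, 8757742 to 8757759, plus strand), which encodes the other subunit of the nascent polypeptide-associated complex, held 0.0765, 0.05 and 0.0497% in WT-ISC, 0.115, 0.114 and 0.0979% in SPEN-ISC, 0.0510 and 0.0531% in WT-EB and 0.0659, 0.0908 and 0.107% in SPEN-EB. WT and SPEN overlapped over all libraries, and the call (0.82, adjusted p = 0.0363 from limma) held in only 2 of the 11 fits that leave out a library, those without WT-ISC replicate 1 or SPEN-EB replicate 1.

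Dyrk3, CG3814 and CG2909 passed with less support. Dyrk3 (FBgn0027101, E009, chromosome 4, 1234224 to 1234439, minus strand), a protein kinase gene, held 6.35, 9.29 and 10.9% in WT-ISC and 2.41, 4.00 and 4.75% in SPEN-ISC. In EBs it held 23.1 and 15.2% in WT and 5.15, 3.53 and 5.26% in SPEN, on only 2 to 27 counts (-1.46, adjusted p = 0.0309 from limma). Its call held only without WT-ISC replicate 1, WT-ISC replicate 2 or SPEN-ISC replicate 2 among the 11 fits that leave out a library.

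The first bin of CG3814 (FBgn0025692, E009, 2R, 8764338 to 8764471, minus strand, 1 of 4 transcripts) held 2.26, 3.92 and 3.32% in WT-ISC, 2.09, 1.82 and 1.65% in SPEN-ISC, 4.22 and 4.63% in WT-EB and 2.99, 3.42 and 2.76% in SPEN-EB. All its 134 bases are shared with a bin of CR43468 on the other strand that held 400 to 1325 counts, so its value is uncertain (-0.64, adjusted p = 0.0477 from limma). Its call held only without WT-ISC replicate 1 among those 11 fits. CG2909 (FBgn0030189, E001, X, 10220497 to 10220827, plus strand) held 9.82, 11.2 and 10.9% in WT-ISC, 17.8, 17.2 and 17.1% in SPEN-ISC, 5.73 and 4.94% in WT-EB and 16.4, 16.1 and 10.8% in SPEN-EB (1.01, adjusted p = 0.0498 from limma). Its call held only without SPEN-EB replicate 1 or SPEN-EB replicate 3. SPEN and WT overlapped over all libraries for both genes.

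**Figure D5:**
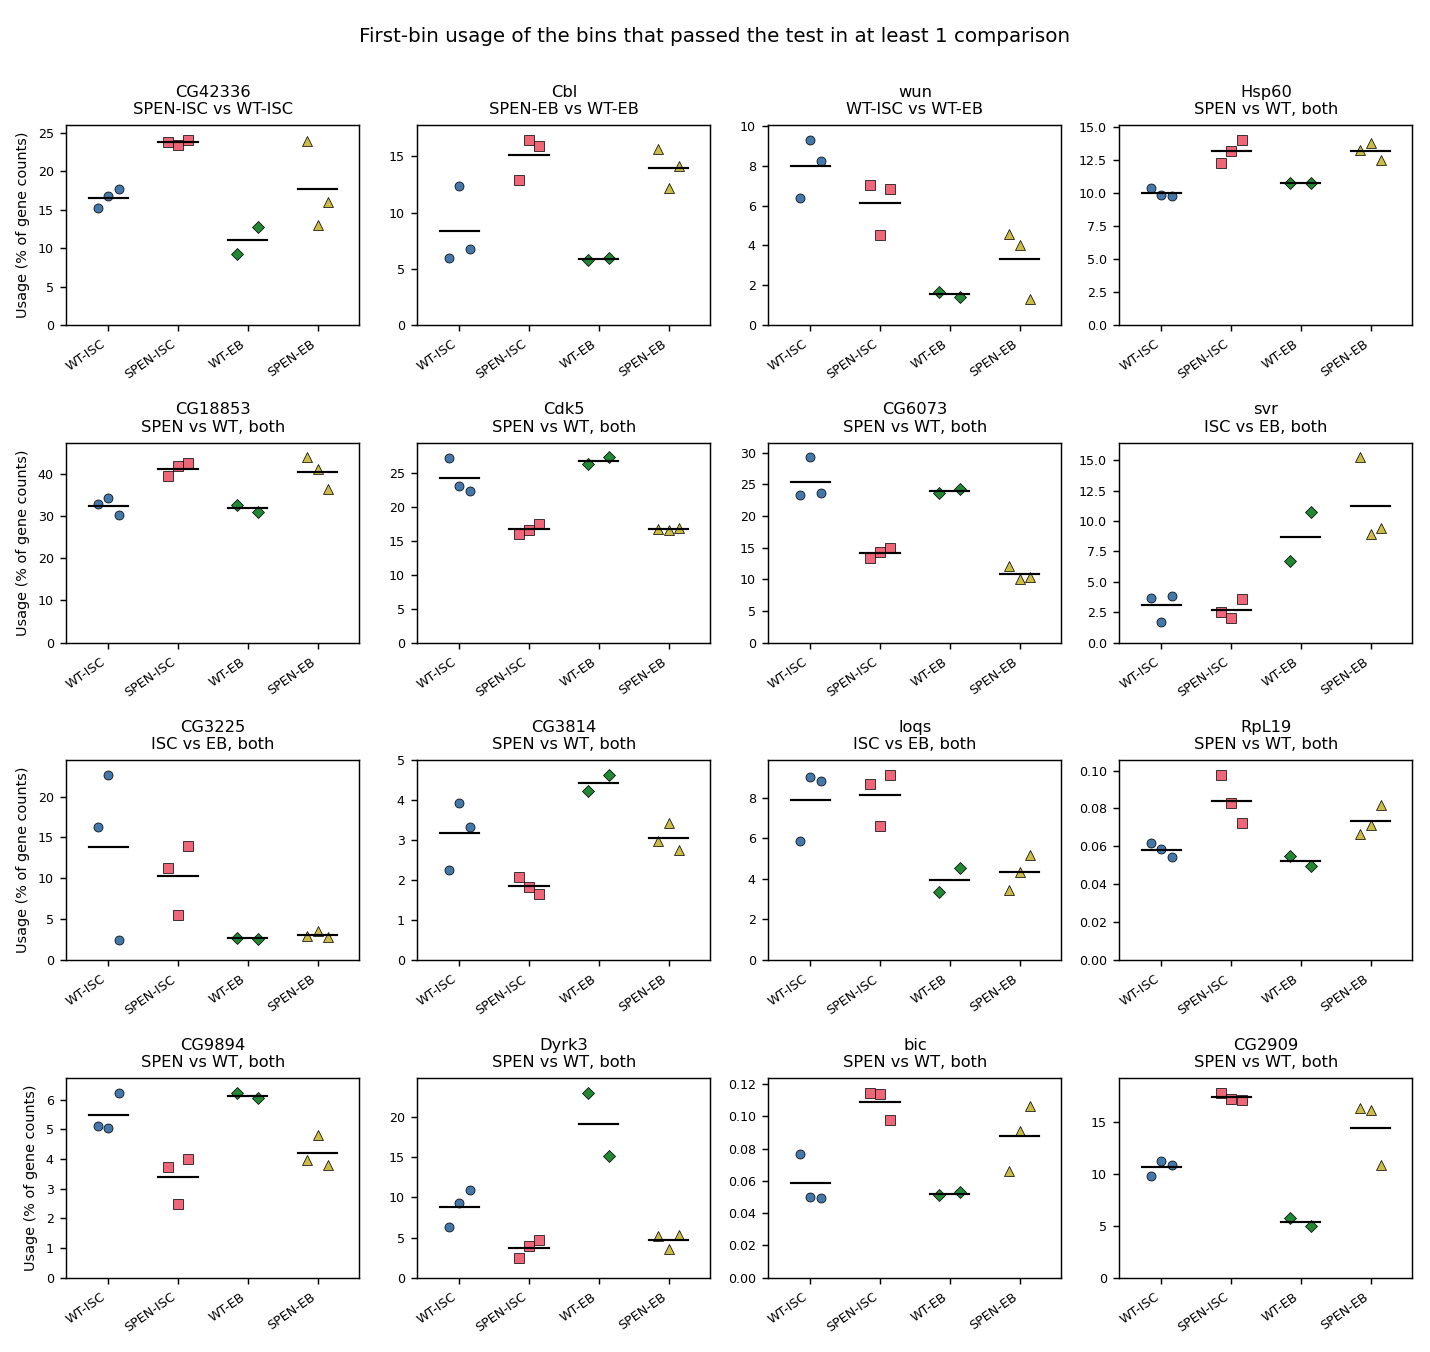
Usage in percent of gene counts of the 16 first bins that passed the test in at least 1 comparison, named above each panel with that comparison; points are libraries, lines group means, and each vertical axis starts at 0. Hsp60, Cdk5 and CG6073 separate SPEN from WT in both cell types, for example 16 to 17.5% against 22.3 to 27.3% for Cdk5, whereas wun, svr and loqs are plotted for ISC against EB.

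Whether the effect of spen RNAi differed between ISCs and EBs was tested as an interaction in all 11 libraries. None of 3318 first bins passed (limma; 0 of 33820 bins, 0.0%, and 0 also with edgeR and DESeq2). Unadjusted p was under 0.05 for 114 first bins (3.44%, against 2.37% of all bins), and the median was 0.10 over first bins and 0.00584 over all. The median over first bins was 0.01 without SPEN-EB replicate 3, 0.18 without SPEN-EB replicate 1, 0.06 without SPEN-ISC replicate 3 or either WT-EB library, and 0.03 with the 3′ to 5′ ratio as a covariate. The first-bin effects that passed in 1 cell type are therefore not shown to be particular to it.

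In wild type, ISCs and EBs were compared directly, and 1 of 2724 first bins passed, against 13 of 27367 bins (0.0475%). Unadjusted p was under 0.05 for 178 first bins (6.53%), 48 higher in ISCs and 130 lower, against 5.11% of all bins (2.39% and 2.73%). The median was -0.06 over first bins and -0.01 over all, and 59.9% of first bins were below 0 against 50.8% of all. Groups did not overlap for 720 (26.4%, against 22.3%). Without WT-EB replicate 1 the median over first bins was -0.04. Without WT-ISC replicate 1, 43 of 2666 first bins passed, beside 326 of 26962 bins in all, and without WT-ISC replicate 2 or 3, 0 first bins did. The enterocyte, enteroendocrine and ISC markers were higher in every WT-ISC library than in every WT-EB library, and their part in these differences was not tested.

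The bin that rose in WT-ISC was that of wun, which encodes a lipid phosphate phosphatase known from germ cell migration. Its first bin (FBgn0016078, E010, 2R, 5300730 to 5300965, minus strand, 2 of 3 transcripts) held 6.37, 9.31 and 8.22% in WT-ISC and 1.66 and 1.42% in WT-EB. In SPEN it held 7.06, 4.53 and 6.84% in ISCs and 4.59, 4.04 and 1.32% in EBs, where the groups overlap. The log2 difference in wild type was 2.52 (SE 0.36, adjusted p = 0.0388 from limma) on 10 to 154 counts. The call was lost in 8 of 13 alternatives, which included edgeR, a minimum of 30 counts and the fits without WT-ISC replicate 2, WT-ISC replicate 3 or either WT-EB library.

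The next bins did not pass. The TRP channel gene pain differed by -1.05 (adjusted p = 0.167 from limma), Rab1, a GTPase of transport to the Golgi, by -0.28 (adjusted p = 0.183), CG3609 by 0.37 (adjusted p = 0.27) and GS by -1.04 (adjusted p = 0.225). Rab1 usage was 28 ± 0.282% in WT-ISC (SD, n = 3) and 32.2 ± 1.3% in WT-EB (n = 2). Without WT-ISC replicate 1, all of pain, Rab1, CG3609 and GS passed (adjusted p from limma of 0.0094, 0.022, 0.031 and 0.039).

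Under spen RNAi, 0 of 2818 first bins passed between ISCs and EBs (limma; 1 of 28192 bins in all, 0.00355%), with 1 by DESeq2 and 0 by edgeR. At an unadjusted p under 0.05 there were 95 first bins (3.37%, against 2.27% of all bins), and groups did not overlap for 212 (7.52%, against 6.84%). The median was 0.03 over first bins and 0.00299 over all, and 42.7% of first bins were below 0 against 49.3% of all. The median over first bins turned to -0.06 without SPEN-EB replicate 3, to -0.00224 without SPEN-ISC replicate 3 and to -0.01 with the 3′ to 5′ covariate, and was 0.11 without SPEN-EB replicate 1. The bins without overlap that had the smallest unadjusted p included svr (-2.26, adjusted p = 0.49 from limma), CG3225 (2.12, adjusted p = 0.687), loqs (1.01) and CG3814 (-0.73).

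Over both genotypes, in a comparison also added later, 3 of 3318 first bins passed between ISCs and EBs, against 29 of 33820 bins (0.0857%). Among them, CG3225 met the count minimum mainly through its ISC libraries. Unadjusted p was under 0.05 for 204 first bins (6.15%, against 4.81% of all bins), and groups did not overlap for 29 (0.874%, against 0.645%). Calls numbered 0 without either WT-EB library and 1 without SPEN-ISC replicate 1, SPEN-ISC replicate 3, SPEN-EB replicate 2 or SPEN-EB replicate 3.

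First bins of svr and loqs did not overlap between the cell types. svr encodes a carboxypeptidase D that trims peptides, and its first bin is an alternative start (FBgn0004648, E001, X, 390504 to 391422, plus strand, 3 of 8 transcripts). It held 3.68, 1.71 and 3.84% in WT-ISC and 2.49, 2.03 and 3.55% in SPEN-ISC. In EBs it held 6.72 and 10.7% in WT and 15.2, 8.97 and 9.43% in SPEN. On the log2 scale it was 2.14 lower in ISCs than in EBs (adjusted p = 0.0306 from limma). Counts in the bin were low, at 35, 85 and 53 in WT-ISC, 32, 45 and 90 in SPEN-ISC, 8 and 18 in WT-EB and 32, 13 and 15 in SPEN-EB. The bin's own counts were thus not lower in ISCs, and the whole gene held 119 to 4958 counts a library. The call was lost with edgeR and without SPEN-ISC replicate 1 or any 1 of the 5 EB libraries. The enteroendocrine markers, whose cells process peptides, were higher in every ISC library than in every EB library, and their part in this difference was not tested.

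loqs encodes a double-stranded RNA-binding partner of Dicer. Its first bin (FBgn0032515, E001, 2L, 13382648 to 13382787, plus strand, all 4 transcripts) held 5.85, 9.01 and 8.81% in WT-ISC, 8.66, 6.59 and 9.12% in SPEN-ISC, 3.36 and 4.55% in WT-EB and 3.46, 4.35 and 5.19% in SPEN-EB. Its usage was 1.04 higher in ISCs on the log2 scale (adjusted p = 0.0306 from limma), on 27 to 77 counts. The bin held 39, 59 and 60 counts in WT-ISC, 77, 27 and 66 in SPEN-ISC, 35 and 40 in WT-EB and 56, 32 and 77 in SPEN-EB. The bin's own counts thus did not separate ISCs from EBs. The loqs bin kept its call only without WT-ISC replicate 1, SPEN-ISC replicate 2 or SPEN-EB replicate 3 among 11 fits. The bin of CG3225 (FBgn0031631, E005, 2L, 4818038 to 4818245, minus strand) passed on 1 to 13 counts with overlapping values (2.37, adjusted p = 0.0172 from limma). It held 16.3, 22.6 and 2.44% in WT-ISC, 11.3, 5.56 and 14% in SPEN-ISC, 2.73 and 2.6% in WT-EB and 2.96, 3.59 and 2.77% in SPEN-EB. Counts were 7, 12 and 1 in WT-ISC, 13, 1 and 13 in SPEN-ISC, 5 and 4 in WT-EB and 5, 6 and 13 in SPEN-EB. CG3225 thus met the minimum of 10 counts mainly through ISC libraries, where its usage was high. No support for a difference is drawn from its call, and it was not tested between WT-ISC and WT-EB. Its call was lost in unweighted limma and edgeR and without SPEN-ISC replicate 3, SPEN-EB replicate 3 or either WT-EB library. CG18747 (-0.53) and the histone gene His4r (0.27) lay just outside, each at an adjusted p of 0.0569.

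Read by gene group, RpL19 and svr were the only listed first bins that passed in any comparison. For SPEN against WT over both cell types, 1 of 58 cytoplasmic ribosomal protein bins rose and 0 fell, 17 had an unadjusted p under 0.05 (all bins, 6.69%), and their median was -0.01, equal to the rounded median of all bins. In EBs 12 of 57 (all bins, 5.73%), and between WT-ISC and WT-EB 11 of 58 (all bins, 5.11%), had such a p, with medians of -0.03 and -0.00306. The shares of all bins are not matched for counts, and some ribosomal first bins were deep, such as RpS21 with 36163 to 90499 counts. The part of depth in these shares was not tested. Chromatin regulators had 6 of 13 in ISCs (all bins, 3.58%), with a median of 0.27 and 0 passing, and 6 of 16 over both cell types (all bins, 6.69%), with a median of 0.18. Mitochondrial ribosomal proteins had 1 of 15 over both cell types (median -0.07), splicing factors and hnRNPs 4 of 28 (-0.09), translation factors 2 of 20 (-0.01) and genes of mitosis 0 of 16 (-0.08).

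Against the same 6.69%, Notch pathway first bins had 3 of 11 and a median of -0.09 over both cell types, signalling genes 1 of 21 (-0.08), and actin and junction genes 3 of 21 (-0.05). For peptide hormones and processing enzymes no median is given between ISCs and EBs, because some of these genes were tested through their ISC libraries. Ast-C, for example, had 182 to 2018 counts in its first bin in WT-ISC and 0 in both WT-EB libraries. The 5 digestive enzymes had 2 at an unadjusted p under 0.05 between ISCs and EBs over both genotypes (all bins, 4.81%), with a median of -0.01 and 0 passing.

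The first bins of several other genes that the study names did not pass. The exon usage calls of the study concern particular bins, which were not matched to first bins here. The values below are thus no test of those calls. RpS21 held 27.1 ± 0.438% in WT-ISC, 26.1 ± 0.776% in SPEN-ISC, 28.4 ± 0.282% in WT-EB and 26.1 ± 1.34% in SPEN-EB (SD, n = 3, 3, 2 and 3), a log2 difference of -0.12 for SPEN against WT (adjusted p = 0.517 from limma). RpL3 differed by -0.01. The trace first bin of RpL17 differed by 0.50 (adjusted p = 0.436) and by 0.72 in EBs, where the groups did not overlap (adjusted p = 0.628), and that of RpS7 by 0.07, and mRpL16 differed by -0.12.

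Other such genes had few counts in the first bin. The bin of nito, which encodes a relative of Spen, held 1 to 30 counts and 2.67 ± 1.22% in WT-ISC, 4.86 ± 3.27% in SPEN-ISC, 3.53 ± 1.24% in WT-EB and 4.68 ± 2.41% in SPEN-EB (SD, n = 3, 3, 2 and 3). The bin of Dl held 0 to 125 counts and 4.17, 17.8 and 5.97% of the gene in WT-ISC against 9.63, 15.5 and 13% in SPEN-ISC, which overlap. In WT-EB the whole Dl gene held 0 counts in 1 library, so no usage can be given. The bin of PGRP-LB, which encodes a peptidoglycan recognition protein, held 9 to 47 counts and differed by 0.87 between SPEN and WT in ISCs, where the groups overlap, and by -0.82 in EBs, where they do not (adjusted p = 1.00 and 0.872 from limma). Its interaction was 1.69 (SE 0.57, unadjusted p = 0.00943, adjusted p = 1.00 from limma). Akt1, an insulin pathway kinase gene, differed by 0.24 over both cell types and did not pass. Ubi-p63E, Egfr, polo and chn had first bins under the count rule, and cdc2 and spdo have fewer than 4 bins.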

How the data were processed

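RNA was sequenced from sorted ISCs and EBs in 11 libraries, paired reads from poly(A)-selected RNA per the study's methods, while the labels also name rRNA removal. Per the labels, the authors aligned reads with TopHat2 2.0.6 to BDGP5. They counted them in exon bins with DEXSeq, in which a read adds to every bin it overlaps, and the deposited exon table holds these raw counts. Bin positions and transcripts came from the authors' exon usage table for SPEN-EB against WT-EB. Columns with the authors' own fold changes and p-values were not used, nor were 16 columns that repeat counts and 4 of group means. WT-EB replicate 2 was not analysed here. No sequence is shown, because no genome of this release was used here.

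For every bin of a gene with several bins, log2((bin counts + 0.5)/(other counts of the gene + 0.5)) was fitted with limma 3.58.1 (R 4.3.3), with precision weights, a variance trend and a robust prior. Library size cancels in this ratio. A bin needed at least 10 counts, and 10 in the rest of the gene, in a number of libraries equal to the size of the smaller group (2 in fits over all 11). P-values were adjusted by Benjamini-Hochberg over all bins tested, with a threshold of 0.05. They measure the spread between these libraries. Library summaries were tested by exact permutation, and the correlation with 100000 permutations. CPM is the count scaled to the total over all bins of the library. Alternatives were unweighted limma, edgeR 4.0.16, DESeq2 1.42.0, minimums of 30 and 1 count, a covariate for the 3′ to 5′ ratio, centring on the median first bin, a replicate block, and leaving out each library. The fits were tested on simulated data. Python 3.11.15, numpy 2.4.6, pandas 2.3.3, scipy 1.17.1 and matplotlib 3.10.9 were used.

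Bins named are those that passed (up to 12 a comparison), filled up to 5 by the smallest unadjusted p among bins without overlap, those of genes the study names, the 2 with most counts of each list, the 3 highest and 3 lowest in usage, and the 5 alternative starts with most counts. The same rule was applied to the comparisons over both cell types or genotypes, which were added later. An item under this rule is not reported here, and some others are given only within their lists. The gene qm was left out of the ribosomal protein list because its symbol names another gene. Members and lists were chosen with earlier results of these data known.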

Additional observations from a re-analysis of the deposited data

Results flagged for a closer look

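The first bin of borr (2L, 9252635 to 9253118, minus strand), which encodes a subunit of the chromosomal passenger complex of mitosis, had a difference between ISCs and EBs whose sign was opposite in WT and SPEN. Its usage was 45.2, 47.7 and 45.0% in WT-ISC, below the 50 and 50% of WT-EB, and 38.6, 47.6 and 43.5% in SPEN-ISC, above the 31.6, 33.3 and 36.9% of SPEN-EB. The log2 ratio of group means, ISC to EB, was -0.12 in WT and 0.35 in SPEN. The interaction was 0.67 (SE 0.44) and did not pass (adjusted p = 1.00 from limma). The bin held 15 and 27 counts in WT-EB and 18, 12 and 41 in SPEN-EB, of which 12 was the lowest in any library. It shares 7 bases with a bin of Ggamma30A on the other strand that held 1 to 25 counts, so its value is uncertain.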

How the results depend on the processing

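Counts of first bins that passed moved with the test. In place of 1 for SPEN-ISC against WT-ISC, unweighted limma, edgeR and a minimum of 30 counts gave 0, DESeq2 gave 4, and a minimum of 1 count, the 3′ to 5′ covariate and centring each gave 2, beside 6 to 8 bins in all where 0 first bins passed, 37 with DESeq2 and 10 to 27 for the others, in place of 9. In place of 1 for SPEN-EB against WT-EB, DESeq2 gave 11, a minimum of 1 count 6, the covariate 33 and centring 2, beside 57, 40, 243 and 22 bins in all in place of 21. In place of 1 for WT-ISC against WT-EB, unweighted limma, edgeR and a minimum of 30 counts gave 0 and DESeq2 4, beside 5, 3, 2 and 46 bins in all in place of 13. For SPEN-ISC against SPEN-EB, DESeq2 and the covariate gave 1 in place of 0, beside 21 and 6 bins in all in place of 1. For SPEN against WT over both cell types, DESeq2 gave 16 and the covariate 19 in place of 10, beside 121 and 141 bins in all in place of 82. For ISC against EB over both genotypes, edgeR gave 0, DESeq2 13, a minimum of 1 count 6 and the covariate 9 in place of 3, beside 16, 80, 81 and 60 bins in all in place of 29. The interaction gave 0 under every alternative run. The cause of these shifts was not tested.

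Leaving out each library in turn gave 0 to 1, 1 to 28, 0 to 43 and 0 to 0 first bins for the 4 comparisons of groups in the order above, 3 to 15 for SPEN against WT over both cell types and 0 to 4 for ISC against EB over both genotypes. The library median differed by -0.0543 to 0.0161 between ISC and EB and by -0.11 to -0.04 between SPEN and WT, and the spen first bin without E014 by 0.74 to 2.19. Taken relative to last bins, the ISC to EB difference was 0.000573 (exact permutation p = 0.995). With E014 kept, the spen difference was -0.72. Correlations of the deviations from group means ran from -0.420 to 0.361 for same-numbered libraries and from -0.515 to 0.548 for other pairs. The paper sorted ISCs and EBs simultaneously, and these correlations cannot decide whether same-numbered libraries are paired. With the replicate number as a block, 0, 69 and 13 first bins passed for SPEN-ISC against WT-ISC, SPEN-EB against WT-EB and WT-ISC against WT-EB, and 6 for SPEN against WT over both cell types, beside 6, 372, 77 and 65 bins in all. The p of the library medians was then 0.875 and 0.125 (exact permutation). Leaving out merged genes was not run, since 0 gene IDs are joined. Bins with few counts limit what a single library can show.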
